A study of Mus musculus with 36 samples.

Results

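The response of mouse fibroblasts to reprogramming factors was compared between 2 genotypes, gene by gene, from 4 RNA libraries. The quantity is a difference of responses on log2(FPKM + 1): day 20 minus MEF in MLL3-/-;MLL4-/- cells (DKO), minus day 20 minus MEF in MLL3-/-;MLL4flox/flox cells (f/f). A negative value means that a gene gained less, or lost more, in DKO than in f/f. Of 36 samples in the series, 12 are RNA libraries, and 4 of these enter the contrast. FPKM scales fragments by transcript length and by library size, so levels are per length. Genes with a mean of at least 1 FPKM over the 4 libraries were considered, which left 12281 of 24284 genes.

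The 4 libraries were day-20 cells and MEF of the DKO genotype, and day-20 cells and MEF of the f/f genotype. By the labels all of these cells lack MLL3, so f/f is labelled MLL3-null with conditional MLL4 alleles, and no wild-type cells enter the contrast. The MEF are immortalized mouse embryonic fibroblasts, kept in DMEM with 10% fetal bovine serum. Day-20 cells are such fibroblasts after infection with lentiviruses carrying Oct4, Sox, Klf4 and c-MYC, moved to embryonic stem cell medium with LIF 2 days after infection. The labels name neither the Sox gene nor the species of the factor sequences, and they do not say whether feeder cells were used at this step. Factors, medium and days in culture all separate day 20 from MEF, and their parts in a response cannot be told apart. Each group had 1 library, so the spread between replicates is unknown and every statement below is one of size. No test was possible.

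MLL3 and MLL4 are the related enzymes, encoded by Kmt2c and Kmt2d, that place most monomethylation on histone H3 lysine 4 at enhancers. They are known to be needed when cells switch on new enhancer programmes, and reprogramming of fibroblasts to pluripotency is such a switch. It is known to begin with loss of fibroblast genes and gain of epithelial genes, and to end with activation of the cells' own pluripotency genes.

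The deposited values went back to 23413352 reads at day 20 and 38264157 reads in MEF for DKO, against 25014405 and 28921512 reads for f/f. Kmt2d stood at 24.8 FPKM at day 20 and 23.5 FPKM in MEF in DKO, against 12.9 FPKM at day 20 and 14.4 FPKM in MEF in f/f. Of these 4 libraries, those labelled DKO therefore carried more Kmt2d RNA than those labelled f/f. The order was the other way round outside the contrast. Embryonic stem cells (ESC) had 10.7 FPKM in DKO and 18.7 FPKM in f/f, and day-4 embryoid bodies had 10.1 and 15.4 FPKM. These values cover the whole transcript and do not isolate the deleted part. Which exons were removed is not stated in the labels, so the levels do not check either label. Kmt2c, labelled as deleted in both genotypes, lay between 2.79 and 3.06 FPKM in the 4 libraries. The Y-linked genes separated the libraries. Ddx3y, a Y-encoded RNA helicase, stood at 0.138 FPKM at day 20 and 1.11 FPKM in MEF in DKO, against 24.5 FPKM at day 20 and 8.25 FPKM in MEF in f/f, and Eif2s3y stood at 0.266 FPKM at day 20 and 1.51 FPKM in MEF in DKO, against 26.1 FPKM at day 20 and 11.2 FPKM in MEF in f/f. Both were higher at day 20 than in MEF in f/f and lower at day 20 than in MEF in DKO. Xist, an X-linked RNA, had a mean under 1 FPKM over the 4 libraries. Summed over Xist and 4 Y-linked genes, the level was 0.640 FPKM at day 20 and 3.37 FPKM in MEF of DKO. In f/f it was 65.6 and 25.9 FPKM. The part of this difference between lines or cell mixtures in the results below was not tested, and with 1 library a group none can be left out.

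Sox2 is read here as the Sox factor, which is an assumption, since the labels give no Sox number. Of the factor genes so read, Pou5f1 (Oct4) and Sox2 were raised at day 20 in f/f and not in the library labelled DKO. Pou5f1 stood at 0.118 FPKM at day 20 and 0.0906 FPKM in MEF in DKO, against 19.8 FPKM at day 20 and 0.120 FPKM in MEF in f/f, a difference of responses of -4.18 with a standard error of 0.13 from counting alone. The DKO day-20 value rests on 4 reads and the f/f value on 713. Sox2 stood at 0.243 FPKM at day 20 and 0.0532 FPKM in MEF in DKO, against 9.36 FPKM at day 20 and 0.127 FPKM in MEF in f/f, a difference of -2.96. Klf4 was lower at day 20 than in MEF in DKO, with 8.38 FPKM at day 20 and 21.9 FPKM in MEF in DKO, against 17.9 FPKM at day 20 and 18.8 FPKM in MEF in f/f and a difference of -1.22. Myc did not follow the other 3: it stood at 105 FPKM at day 20 and 106 FPKM in MEF in DKO, against 30.7 FPKM at day 20 and 26.4 FPKM in MEF in f/f, several times higher in both DKO libraries, including the MEF that had received no factors, with a difference of -0.21. Gene-level values cannot separate a mouse factor sequence carried by a virus from the cell's own gene, and a factor of another species may not be counted. How much factor each culture received is therefore not shown by these values, and its part in the differences below was not tested.

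Neither day-20 library carried the transcripts that define pluripotent stem cells at their level in ESC. The 17 core pluripotency genes summed to 17.6 FPKM in DKO and 26.1 FPKM in f/f at day 20. In MEF the sums were 12.9 and 12.8 FPKM, and in ESC libraries of the same file type they were 2661 and 4122 FPKM. The genes named next were chosen after their values were seen. Zfp42 (Rex1) was at 0 FPKM in DKO and 0.0666 FPKM in f/f at day 20, Dppa4 at 0 and 0.0521, and Fgf4 at 0 and 0.0660. Each was listed at 0 in both MEF libraries. Some members were higher at day 20 in f/f. L1td1, an RNA-binding protein of pluripotent cells, stood at 0.0145 FPKM at day 20 and 0.0355 FPKM in MEF in DKO, against 4.19 FPKM at day 20 and 0.0470 FPKM in MEF in f/f (difference -2.34), and Dppa5a, another RNA-binding protein of such cells, at 0.401 FPKM in DKO and 4.07 FPKM in f/f at day 20 and at 0 in both MEF. E-cadherin, encoded by Cdh1, was listed at 0 FPKM in DKO and stood at 3.24 FPKM in f/f at day 20. Epcam was likewise at 0 in DKO and at 1.77 FPKM in f/f. Nanog did not share this pattern, with 9.68 FPKM at day 20 and 7.17 FPKM in MEF in DKO, against 5.49 FPKM at day 20 and 7.26 FPKM in MEF in f/f. It was thus the largest part of the core sums in both MEF libraries and in DKO at day 20, but not in f/f at day 20. How reads shared with near-identical sequences were assigned is not stated, and its effect on the Nanog level was not tested. Bulk libraries cannot tell fewer expressing cells from less RNA per cell. Because these markers are far below ESC, the cells are called day-20 cells here and not induced pluripotent cells.

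**Figure D1:**
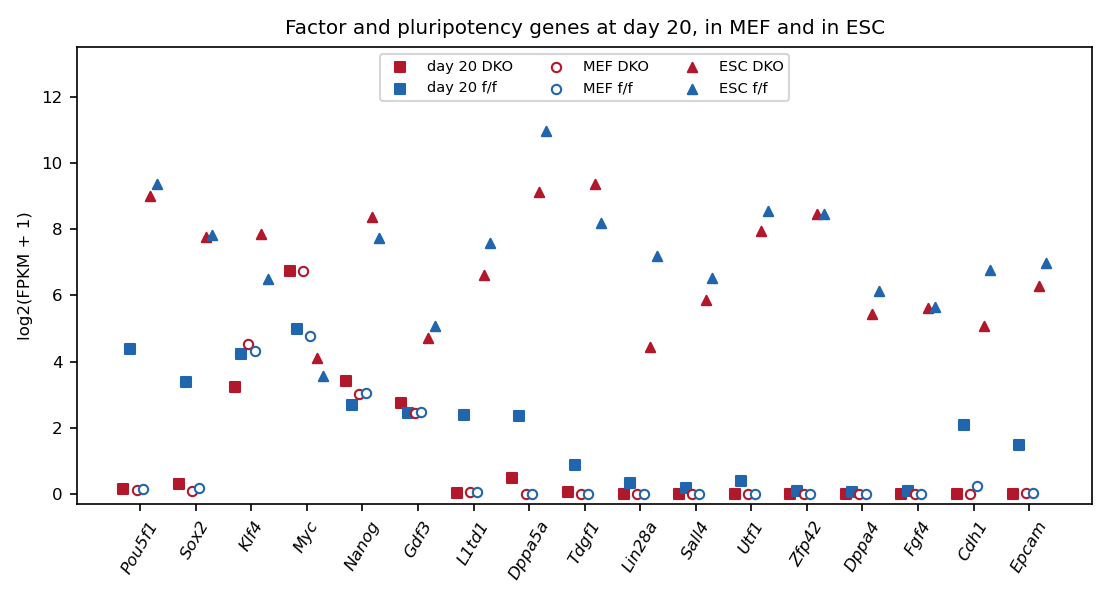
Levels, on log2(FPKM + 1), of 4 factor genes (Sox2 by assumption) and 13 pluripotency genes in day-20 cells (squares), MEF (open circles) and ESC (triangles), DKO in red and f/f in blue, 1 library per point. Pou5f1 and Sox2 at day 20 are raised in f/f (19.8 and 9.36 FPKM) and not in DKO (0.118 and 0.243 FPKM), while Zfp42, Dppa4 and Fgf4 are near 0 in both.

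Over all genes considered, 271 had a difference of responses of at most -2 (4-fold or more lower in DKO, 2.21% of genes) and 159 one of at least 2 (1.29%). At the 2-fold line, 954 were lower (7.77%) and 776 higher (6.32%). The median difference was -0.01, the SD across genes 0.816, and the range -6.59 to 5.56. The response itself was smaller in the libraries labelled DKO. There, 501 genes were at least 2-fold higher at day 20 than in MEF (4.08%) and 446 at least 2-fold lower (3.63%), against 775 (6.31%) and 695 (5.66%) in f/f. The SD of the response across genes was 0.576 in DKO and 0.749 in f/f. Across the 12281 genes, which are not independent, the 2 responses had a Pearson r of 0.262 and a Spearman rho of 0.284; each pair of values comes from 4 libraries with no sample in common. The value nearest the 4-fold line on the inside was H2-Ab1 at -2.0, and on the outside Adamtsl3 at 1.998.

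**Figure D2:**
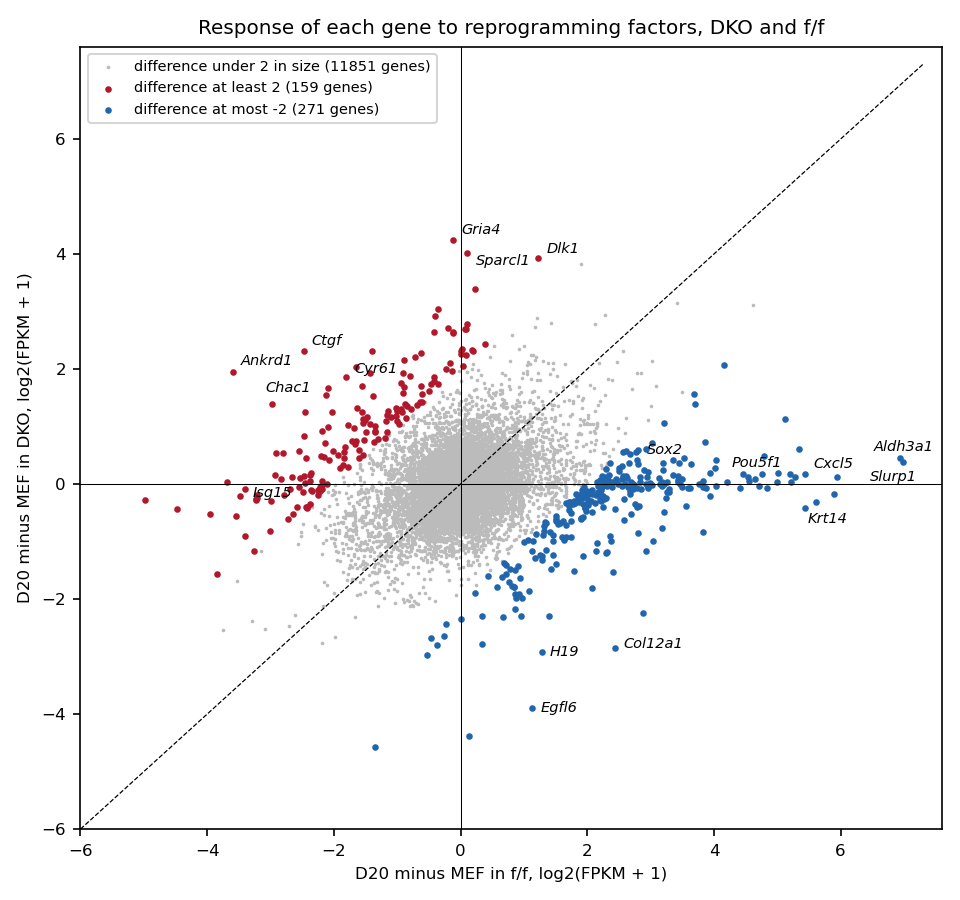
Day 20 minus MEF in DKO (vertical) against day 20 minus MEF in f/f (horizontal), both on log2(FPKM + 1), 1 point per gene considered. The dashed line marks equal responses. Most of the 271 blue genes lie along the horizontal axis to the right, where only f/f was higher at day 20, and the 159 red genes lie above the line, on both sides of zero for DKO.

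The genes with a lower response in DKO were mostly genes that were raised in f/f and stayed low in DKO. Of the 271, 209 were at least 2-fold higher at day 20 in f/f with no 2-fold change in DKO. Another 32 were at least 2-fold lower at day 20 in DKO only, 24 moved at least 2-fold in opposite directions, and 6 moved in the same direction. Their median level was 0.680 FPKM in DKO and 16.2 FPKM in f/f at day 20, and 1.14 FPKM in DKO and 1.72 FPKM in f/f as MEF. The DKO minus f/f gap was wider at day 20 than in MEF for 242 of them. In MEF the gap was under 2-fold for 185 (68.3%), against 91.1% of all genes. Gaps of at least 2-fold were commoner at day 20 over all genes too. There, 1283 (10.4%) were lower in DKO and 1015 (8.26%) higher at day 20, and 635 (5.17%) lower and 457 (3.72%) higher in MEF.

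The 159 genes with a higher response in DKO divided differently. In 78 the level was at least 2-fold lower at day 20 in f/f with no 2-fold change in DKO, in 48 it was higher at day 20 in DKO only, and 30 moved in opposite directions. The other 3 moved in the same direction. Their median level was 10.9 FPKM in DKO and 2.26 FPKM in f/f at day 20. As MEF it was 3.50 FPKM in DKO and 10.9 FPKM in f/f. The gap was wider at day 20 for 92 and wider in MEF for 67. Both sets were picked on these same libraries, and the share of all genes with a wider gap at day 20 was not counted.

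Keratins are the intermediate filaments of epithelial cells, and desmosomes are the junctions they anchor to. Of all 26 keratin and desmosome genes, with no filter on low values, 11 were at least 2-fold lower in DKO and none higher, against 4.95% lower and 3.7% higher of all 24284 genes, and the median difference was -0.64. Another 10 were under 1 FPKM in all 4 libraries. The filter kept 11 of the 26, of which 8 were lower, with a median of -2.71. Of those 11, 6 were under 1 FPKM in every library but the f/f day-20 one, so they passed the filter through the library in which they were high, and the median after the filter is partly set by it. That median was the lowest of 40 lists, a place it did not hold with no filter (3 lists lower) or with a pseudocount of 5 (surface epithelium lower). In f/f 7 of the 11 were at least 2-fold higher at day 20, and in DKO none was. Krt14, the keratin of basal layers of stratified epithelium, stood at 0.154 FPKM at day 20 and 0.441 FPKM in MEF in DKO, against 55.9 FPKM at day 20 and 0.167 FPKM in MEF in f/f, a difference of -5.93. Its level in the DKO day-20 library, 6 reads, was as low as in both MEF libraries. Krt8, a keratin of simple epithelium, stood at 0.118 FPKM at day 20 and 0.0869 FPKM in MEF in DKO, against 32 FPKM at day 20 and 0.0383 FPKM in MEF in f/f (-4.95). Krt17 and Krt16, which are known from hair follicles and wounded skin, had differences of -4.91 and -4.75. Krt17 had 0.113 FPKM in DKO and 28.2 FPKM in f/f at day 20, and its f/f MEF value rests on 1 read. All 4 keratins were above 28 FPKM in the f/f day-20 library and below 1 FPKM in the other 3.

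Of all 22 genes of surface epithelium, with no filter, 9 were lower and 1 higher at the 2-fold line, and the median was -0.43. The filter kept 6, 4 of them lower and 1 higher, with a median of -2.43, and 2 of the 6 passed it through the f/f day-20 library alone. Anxa8, an annexin of stratified epithelium, stood at 0.682 FPKM at day 20 and 0.487 FPKM in MEF in DKO, against 86.2 FPKM at day 20 and 2.23 FPKM in MEF in f/f (-4.58). Sfn, the 14-3-3 sigma protein of keratinocytes, stood at 1.14 FPKM at day 20 and 0.680 FPKM in MEF in DKO, against 16.9 FPKM at day 20 and 1.56 FPKM in MEF in f/f (-2.46). The exception was the connexin Gjb2, at 2.84 FPKM at day 20 and 0.533 FPKM in MEF in DKO, against 1.91 FPKM at day 20 and 8.07 FPKM in MEF in f/f, which was higher at day 20 in DKO and lower at day 20 in f/f (2.96). Of 28 genes of epithelial identity and junctions 6 were lower and 1 higher with no filter. The filter kept 7, 2 of them lower, and both of these passed through the f/f day-20 library alone. Spint2, an inhibitor of epithelial serine proteases, had 0.117 FPKM in DKO and 8.84 FPKM in f/f at day 20 (-3.02), and the tight-junction claudin Cldn4 had 0.0471 FPKM in DKO and 3.95 FPKM in f/f. The higher one was the P-cadherin gene Cdh3 (1.36), which stood at 2.29 FPKM at day 20 and 3.55 FPKM in MEF in DKO, against 4.57 FPKM at day 20 and 18.8 FPKM in MEF in f/f.

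**Figure D3:**
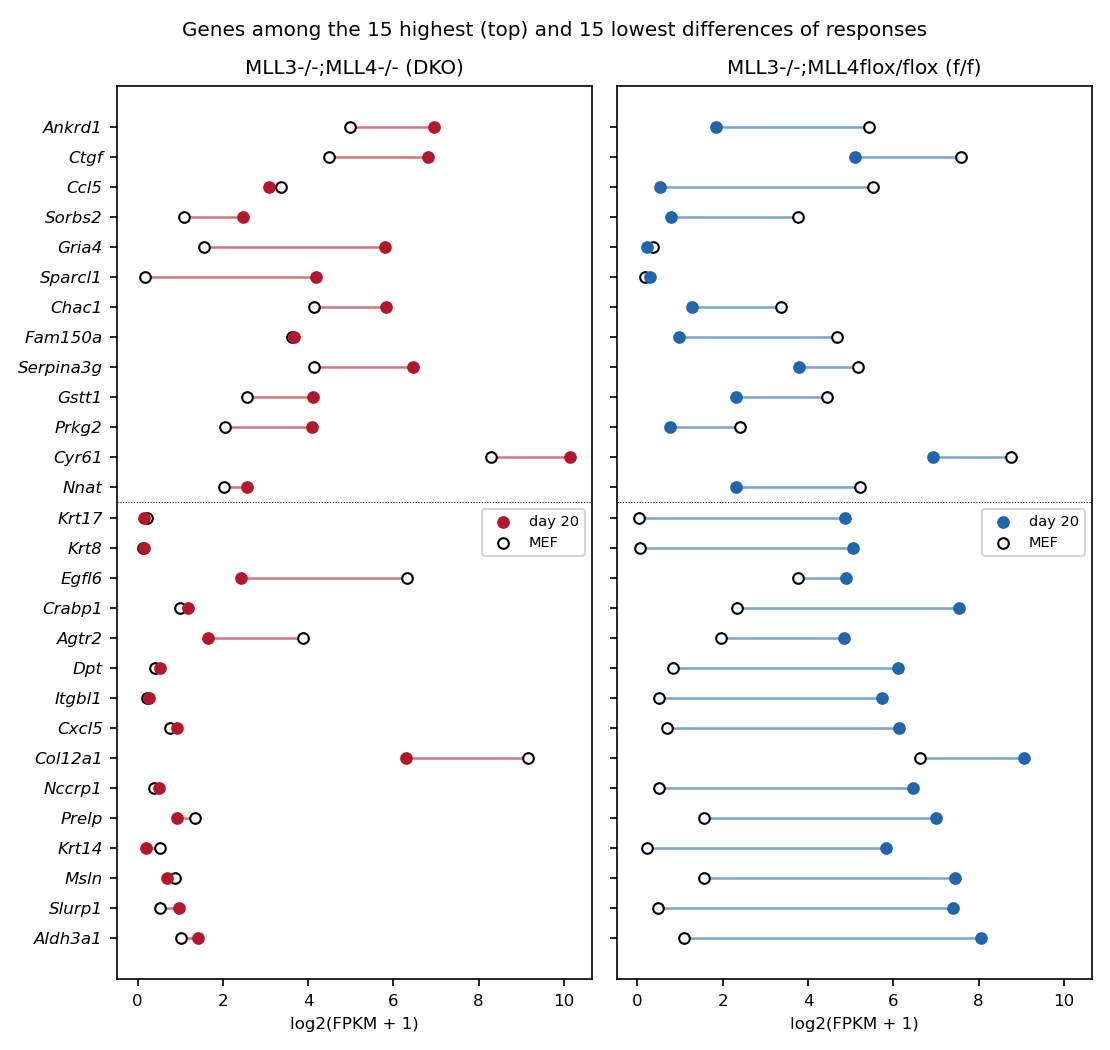
Levels on log2(FPKM + 1) at day 20 (filled) and in MEF (open) of genes among the 15 with the highest and the 15 with the lowest difference of responses, DKO left and f/f right, 1 library per point. In the lower rows the long lines are in f/f, where genes such as Krt14 and Aldh3a1 reached 55.9 and 267 FPKM at day 20, and the DKO points lie close together except for Col12a1, Agtr2 and Egfl6.

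The lowest difference of all was Aldh3a1, an aldehyde dehydrogenase abundant in the cornea, at 1.66 FPKM at day 20 and 1.03 FPKM in MEF in DKO, against 267 FPKM at day 20 and 1.12 FPKM in MEF in f/f (-6.59 with a counting error of 0.17). Slurp1, a secreted protein of keratinocytes, followed with 0.976 FPKM at day 20 and 0.448 FPKM in MEF in DKO, against 169 FPKM at day 20 and 0.395 FPKM in MEF in f/f (-6.48). The Slurp1 level in f/f MEF rests on 6 reads, with an exact 95% Poisson interval of 2.20 to 13.1 reads. Msln, the surface glycoprotein mesothelin, stood at 0.626 FPKM at day 20 and 0.840 FPKM in MEF in DKO, against 174 FPKM at day 20 and 1.93 FPKM in MEF in f/f (-6.08), and Nccrp1, an F-box-associated protein of squamous epithelium, at 0.419 FPKM at day 20 and 0.307 FPKM in MEF in DKO, against 87 FPKM at day 20 and 0.429 FPKM in MEF in f/f (-5.83). In each of these 4 genes the f/f day-20 library stood alone, with the other 3 libraries below 2 FPKM. Crabp1, which binds retinoic acid in the cytoplasm, was also highest in the f/f day-20 library, but above 2 FPKM in f/f MEF. It stood at 1.28 FPKM at day 20 and 1.01 FPKM in MEF in DKO, against 186 FPKM at day 20 and 4.05 FPKM in MEF in f/f (-5.03).

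At the 2-fold line, more fibroblast matrix genes were higher than lower at day 20 in both genotypes. The matrix list had 28 members, all of them considered, of which 11 were at least 2-fold lower in DKO and none higher, with a median of -0.51. Of the 28, 2 were under 1 FPKM in every library but the f/f day-20 one. In f/f 17 of the 28 were at least 2-fold higher at day 20 than in MEF and none lower, against 4 higher and 2 lower in DKO. Prelp, a leucine-rich repeat protein of connective tissue, stood at 0.901 FPKM at day 20 and 1.54 FPKM in MEF in DKO, against 128 FPKM at day 20 and 1.97 FPKM in MEF in f/f (-5.86). Mfap5, a microfibril glycoprotein, had 0.0606 FPKM in DKO and 17 FPKM in f/f at day 20 (-3.87). Ogn, the proteoglycan osteoglycin, was lost in one line only: it stood at 14.4 FPKM at day 20 and 104 FPKM in MEF in DKO, against 170.2 FPKM at day 20 and 134 FPKM in MEF in f/f (-3.11). Col12a1, a collagen that coats fibrils, moved in opposite directions, with 78.3 FPKM at day 20 and 569 FPKM in MEF in DKO, against 536 FPKM at day 20 and 98.6 FPKM in MEF in f/f (-5.28). The summed level of the matrix list was 19249.6 FPKM in DKO and 24869.7 FPKM in f/f at day 20, and 10659 and 9658 FPKM in MEF. Both sums were thus higher at day 20 than in MEF.

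Of all 22 genes of fibroblast identity, with no filter, 11 were lower and 3 higher at the 2-fold line, and the median was -1.03. The filter kept 20, of which 10 were lower and 3 higher, with a median of -1.06. Of those 20, 3 passed the filter through the f/f day-20 library alone. Thy1, the surface antigen whose loss is known to mark early reprogramming, stood at 1.08 FPKM at day 20 and 0.482 FPKM in MEF in DKO, against 119.7 FPKM at day 20 and 3.37 FPKM in MEF in f/f (-4.30), so it was higher at day 20 in f/f. The matrix-degrading enzymes Mmp3 and Mmp13 had 0.949 and 0.0639 FPKM in DKO and 47.4 and 16.9 FPKM in f/f at day 20, with all 4 MEF values below 1 FPKM. Their differences were -4.73 and -4.07. Igfbp4, which binds insulin-like growth factors, was higher at day 20 in both, with 34.3 FPKM at day 20 and 15.1 FPKM in MEF in DKO, against 672 FPKM at day 20 and 18.3 FPKM in MEF in f/f (-4.0). Dpt (dermatopontin) and Itgbl1 (an integrin-beta-like secreted protein) were outside the lists and gave -5.14 and -5.17. Dpt had 0.444 FPKM in DKO and 67.8 FPKM in f/f at day 20. Markers of other cell types were low at day 20. The 11 macrophage genes summed to 7.98 FPKM in DKO and 6.03 FPKM in f/f, with 2 and 1 of them at 0. The 10 endothelial genes summed to 0.790 and 10.2 FPKM, with 4 at 0 in each, and the only one considered was Eng (-2.28), a TGF-beta coreceptor. The 10 muscle genes summed to 58.5 and 35.3 FPKM, with 4 and 5 at 0.

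Several genes with a lower response in DKO were high in DKO MEF. Agtr2, the type 2 angiotensin receptor, stood at 2.14 FPKM at day 20 and 13.8 FPKM in MEF in DKO, against 27.6 FPKM at day 20 and 2.90 FPKM in MEF in f/f (-5.11). Egfl6, a matrix protein with EGF-like repeats, stood at 4.41 FPKM at day 20 and 79.1 FPKM in MEF in DKO, against 28.8 FPKM at day 20 and 12.7 FPKM in MEF in f/f (-5.01). In both genes DKO MEF was the highest DKO value, and the order of the genotypes was the other way round at day 20. The imprinted noncoding RNA H19 was high in f/f at both times and differed in direction, with 11.3 FPKM at day 20 and 92 FPKM in MEF in DKO, against 1712 FPKM at day 20 and 704 FPKM in MEF in f/f (-4.20). Its neighbour Igf2, the insulin-like growth factor 2 gene, also had a negative difference (-2.85), but the order of genotypes was the other way round. Igf2 stood at 506 FPKM at day 20 and 609 FPKM in MEF in DKO, against 214 FPKM at day 20 and 34.9 FPKM in MEF in f/f. It was thus higher in DKO at both times. Like H19, it was higher at day 20 than in MEF in f/f and lower in DKO, there by less than 2-fold.

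The highest difference of responses was Ankrd1, a nuclear ankyrin-repeat protein and a known target of YAP. YAP is a coactivator that binds TEAD factors on DNA and is active in spread, tense cells. Ankrd1 stood at 123 FPKM at day 20 and 30.9 FPKM in MEF in DKO, against 2.56 FPKM at day 20 and 42.2 FPKM in MEF in f/f, a difference of 5.56 with a counting error of 0.11. Also among the highest 15 were Ctgf and Cyr61 (current symbols Ccn2 and Ccn1), which encode secreted matricellular proteins and are textbook YAP targets. Ctgf stood at 112 FPKM at day 20 and 21.7 FPKM in MEF in DKO, against 33.6 FPKM at day 20 and 192 FPKM in MEF in f/f (4.79), and Cyr61 at 1139 FPKM at day 20 and 313 FPKM in MEF in DKO, against 122 FPKM at day 20 and 429.9 FPKM in MEF in f/f (3.67). For all 3 the DKO day-20 library was above DKO MEF, and the f/f day-20 library was below f/f MEF. In MEF the 3 genes were lower in DKO than in f/f, and at day 20 they were higher. Over the YAP and TEAD list, 14 genes were considered, 6 were higher and 1 lower at the 2-fold line, and the median was 0.77. The lower one was Nt5e (-2.93), the ectoenzyme CD73, which is on the fibroblast list too. Others, such as the TEAD factors themselves, lay within 2-fold, and the list's median response was 0.32 in DKO and -0.30 in f/f.

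Of these genes, Ctgf had no promoter in the set used and was not searched. The promoters of the 2 searched are shown because they carry the letters that TEAD factors are known to bind. They are RefSeq sequences of GRCm38.p6, 250 bases before to 50 after the start, chosen after the values were seen, and capitals mark GGAATG or its reverse complement. Ankrd1 lies at chr19:36119795-36120094, minus strand, with 2 matches, and Cyr61 at chr3:145649936-145650235, minus strand, with 1.
Ankrd1: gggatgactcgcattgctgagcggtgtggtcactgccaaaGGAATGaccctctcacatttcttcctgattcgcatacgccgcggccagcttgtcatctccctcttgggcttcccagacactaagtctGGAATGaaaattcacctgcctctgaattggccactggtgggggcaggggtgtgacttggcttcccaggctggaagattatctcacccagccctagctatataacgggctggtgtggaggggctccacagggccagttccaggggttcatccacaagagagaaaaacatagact
Cyr61: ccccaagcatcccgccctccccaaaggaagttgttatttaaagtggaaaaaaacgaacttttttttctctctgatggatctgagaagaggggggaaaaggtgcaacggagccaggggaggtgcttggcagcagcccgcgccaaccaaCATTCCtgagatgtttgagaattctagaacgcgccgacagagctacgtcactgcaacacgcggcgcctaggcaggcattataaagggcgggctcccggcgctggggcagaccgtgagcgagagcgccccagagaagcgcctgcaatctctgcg
GGAATG on either strand was present in 14.6% of 27025 promoters of this length, in 11.7% of the 9607 that belong to genes considered, and in 8 of 10 promoters of the YAP and TEAD list. Among 4-fold higher genes it was in 11.7% of 94, the same share as among genes considered. A match describes letters only, and no binding data were used.

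Genes of the contractile cytoskeleton include many known targets of serum response factor. At day 20, 3 of the 14 considered were at least 2-fold lower than in MEF in DKO and 10 in f/f, and none was 2-fold higher in either. In the difference of responses 5 were higher and none lower at the 2-fold line, with a median of 0.92. Smooth muscle actin, Acta2, stood at 705 FPKM at day 20 and 1575 FPKM in MEF in DKO, against 174 FPKM at day 20 and 1544 FPKM in MEF in f/f (1.98). The actin-binding genes Tagln (1.53) and Tpm1 (1.62) and the factor gene Srf itself (1.33) were the other leading members. Tagln stood at 513 FPKM at day 20 and 608 FPKM in MEF in DKO, against 203 FPKM at day 20 and 699 FPKM in MEF in f/f. Tpm1 and Srf were higher at day 20 than in MEF in DKO, by less than 2-fold, with 359 and 28.8 FPKM at day 20 and 304 and 22.2 FPKM in MEF. Of 16 factors of mesenchymal transition 4 were higher and 5 lower. Snai2, a repressor of epithelial genes, stood at 88 FPKM at day 20 and 48.5 FPKM in MEF in DKO, against 28.7 FPKM at day 20 and 63.7 FPKM in MEF in f/f (1.97), and Runx2, a factor of bone-forming mesenchyme, at 25.9 FPKM at day 20 and 8.09 FPKM in MEF in DKO, against 5.63 FPKM at day 20 and 9.06 FPKM in MEF in f/f (2.17). Snai1, a close relative of Snai2, ran the other way (-1.76), with 20.1 FPKM in DKO and 74 FPKM in f/f at day 20.

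Interferon-stimulated genes had the highest median of the 40 lists, except with a mean of at least 5 FPKM, where the mesendoderm list, then Gata6 alone, was at 2.29. They encode antiviral proteins and are induced together by interferon. Of 24 genes 19 were considered, 14 were higher and none lower at the 2-fold line, and the median difference was 1.71. The gap lay in MEF. There the median DKO minus f/f value was -1.59, and 16 of the 19 were at least 2-fold lower in DKO. At day 20 the median gap was -0.37, with 4 at least 2-fold lower and 1 higher. Over all genes considered, 5.17% were at least 2-fold lower in DKO in MEF and 10.4% at day 20. In f/f 16 of the 19 were at least 2-fold lower at day 20 than in MEF, against 1 in DKO. Isg15, a ubiquitin-like modifier, stood at 2.20 FPKM at day 20 and 2.39 FPKM in MEF in DKO, against 6.56 FPKM at day 20 and 79.2 FPKM in MEF in f/f (3.33). Ifit3, which acts with other IFIT proteins on viral RNA, stood at 1.03 FPKM at day 20 and 1.41 FPKM in MEF in DKO, against 2.26 FPKM at day 20 and 29.7 FPKM in MEF in f/f (2.98), and Oasl2 stood at 0.504 FPKM at day 20 and 0.842 FPKM in MEF in DKO, against 1.19 FPKM at day 20 and 16.5 FPKM in MEF in f/f (2.71). Ifit1 was lower at day 20 in both genotypes, with 1.02 FPKM at day 20 and 4.95 FPKM in MEF in DKO, against 1.61 FPKM at day 20 and 36.6 FPKM in MEF in f/f (2.29). In these 4 genes f/f MEF was the one high library. The summed level of all 24 was 119 FPKM in DKO and 154 FPKM in f/f at day 20, and 166 and 599 FPKM in MEF.

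The promoters of 2 genes of this list are shown with the spaced repeat known as the interferon-stimulated response element in capitals, which was searched on either strand as GAAA, any 2 bases and GAAA again. Isg15 lies at chr4:156200769-156201068, minus strand, with 3 matches that overlap, and Ifit3 at chr19:34583279-34583578, plus strand, with 2.
Isg15: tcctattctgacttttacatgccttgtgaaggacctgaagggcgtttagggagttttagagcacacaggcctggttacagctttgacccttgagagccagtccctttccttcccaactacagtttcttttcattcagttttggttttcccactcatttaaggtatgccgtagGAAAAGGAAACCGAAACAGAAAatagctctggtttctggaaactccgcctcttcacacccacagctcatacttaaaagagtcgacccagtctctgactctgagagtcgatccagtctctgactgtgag
Ifit3: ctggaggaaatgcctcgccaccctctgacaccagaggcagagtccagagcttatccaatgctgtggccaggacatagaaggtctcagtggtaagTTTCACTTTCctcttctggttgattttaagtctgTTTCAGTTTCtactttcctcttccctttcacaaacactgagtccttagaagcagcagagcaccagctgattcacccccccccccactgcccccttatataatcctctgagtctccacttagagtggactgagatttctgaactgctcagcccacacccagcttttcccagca
The element was present in 3.49% of 27025 promoters, 2.91% of those of genes considered, 9 of 15 on the interferon list, and 20 of 94 (21.3%) of the 4-fold higher genes. It was in 4.26% of 188 promoters of 4-fold lower genes. Oasl2 had no match in this window.

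**Figure D4:**
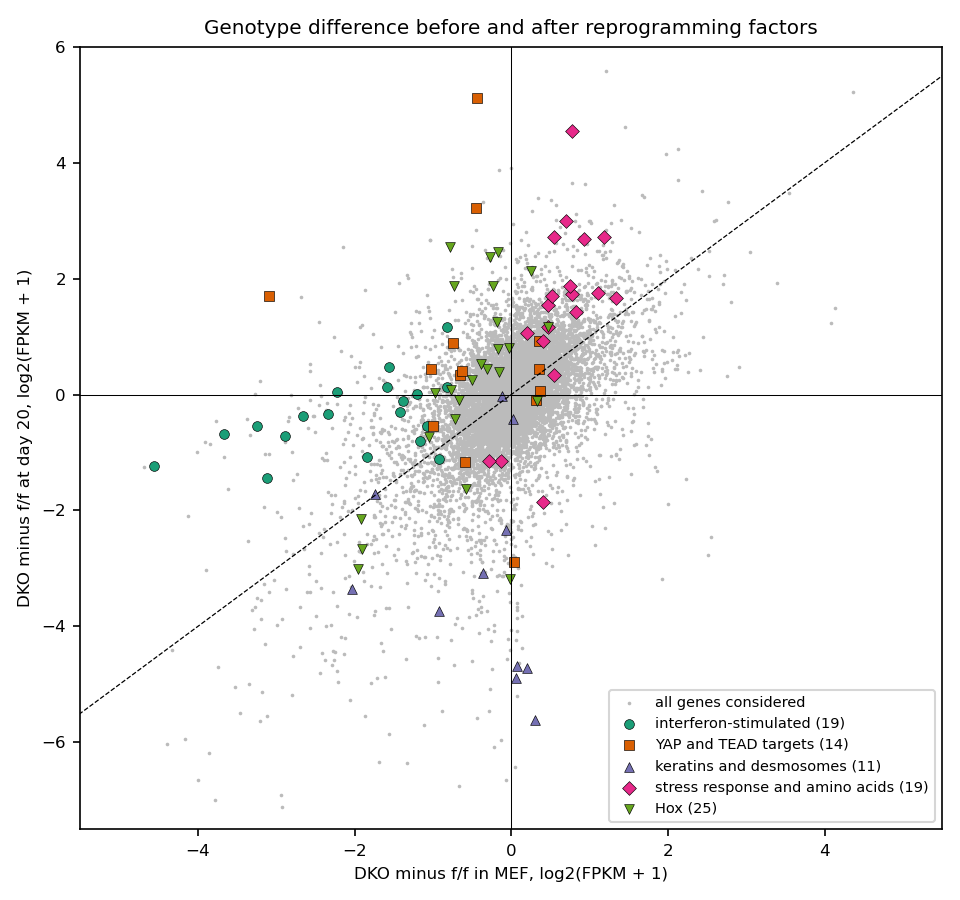
DKO minus f/f at day 20 (vertical) against DKO minus f/f in MEF (horizontal), both on log2(FPKM + 1), 1 point per gene, with 5 lists marked. Points above the dashed line have a positive difference of responses. Of 19 interferon-stimulated genes 16 lie at -1 or below in MEF and 4 at day 20, and of 11 keratin and desmosome genes 2 do so in MEF and 9 at day 20. Of 19 stress genes 14 lie at 1 or above and 3 at -1 or below at day 20, against 3 and 0 in MEF. Over all genes considered, 8.26% lie at 1 or above and 10.4% at -1 or below at day 20, against 3.72% and 5.17% in MEF.

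Genes of the amino-acid and stress response, which the factor ATF4 is known to switch on, differed between genotypes at day 20 more than in MEF. At day 20, 14 of 19 were at least 2-fold higher in DKO than in f/f and 3 at least 2-fold lower, against 3 higher and none lower in MEF. The 3 lower ones were Slc7a3, Ddit4 and Nupr1, the last named after its values were seen. Over all genes considered such gaps were commoner at day 20 too, with 8.26% higher and 10.4% lower, against 3.72% and 5.17% in MEF. In the difference of responses, of 19 genes considered, 8 were higher and 2 lower at the 2-fold line, with a median difference of 0.85. The median DKO minus f/f value was 1.67 at day 20 and 0.55 in MEF. Chac1, which breaks down glutathione, stood at 55.5 FPKM at day 20 and 16.7 FPKM in MEF in DKO, against 1.43 FPKM at day 20 and 9.37 FPKM in MEF in f/f (3.77). Trib3, a pseudokinase, stood at 75.7 FPKM at day 20 and 14.4 FPKM in MEF in DKO, against 8.58 FPKM at day 20 and 8.51 FPKM in MEF in f/f (2.31), and Ddit3, the stress factor CHOP, at 162 FPKM at day 20 and 67.3 FPKM in MEF in DKO, against 23.7 FPKM at day 20 and 45.8 FPKM in MEF in f/f (2.18). In all 3 the DKO day-20 library was the highest of the 4. The members with a difference of at most -1 were the amino-acid transporter Slc7a3 (-2.27) and Ddit4 (-1.03), an inhibitor of the kinase mTOR. The Chac1 promoter is shown for the composite element of C/EBP and ATF factors, written TGATGNAA and marked in capitals on either strand. It lies at chr2:119350992-119351291, plus strand, with 1 match.
Chac1: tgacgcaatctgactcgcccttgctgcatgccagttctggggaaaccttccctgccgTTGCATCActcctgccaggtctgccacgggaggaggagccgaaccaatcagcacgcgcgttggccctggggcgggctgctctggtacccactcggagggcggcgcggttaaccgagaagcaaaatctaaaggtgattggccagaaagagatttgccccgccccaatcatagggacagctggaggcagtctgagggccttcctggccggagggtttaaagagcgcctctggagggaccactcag
The letters TGATGNAA were present in 4.06% of 27025 promoters, 2.18% of those of genes considered and 5 of 17 on the stress list. They were in 2.13% of the 94 promoters of 4-fold higher genes and in 3.19% of the 188 of 4-fold lower genes.

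Hox genes, which record position along the body axis, differed by cluster. Of 39 genes 25 were considered, 8 were higher and 3 lower at the 2-fold line, and the median was 0.76. Over all 39, with no filter, 8 were higher and 6 lower and the median was 0.13. All 8 Hoxb genes considered were above 0, with a range of 0.70 to 3.34 and a median of 2.35. The 9 Hoxa genes had a median of 0.31, the 6 Hoxc genes one of 0.80, and the 2 Hoxd genes one of -1.30. Hoxb9 stood at 58.1 FPKM at day 20 and 39.6 FPKM in MEF in DKO, against 9.06 FPKM at day 20 and 69 FPKM in MEF in f/f (3.34), Hoxb8 at 27 FPKM at day 20 and 25 FPKM in MEF in DKO, against 4.41 FPKM at day 20 and 30.5 FPKM in MEF in f/f (2.65) and Hoxb7 at 24.1 FPKM at day 20 and 17.1 FPKM in MEF in DKO, against 3.56 FPKM at day 20 and 19.4 FPKM in MEF in f/f (2.63). The 3 were kept at day 20 in DKO and were several times lower at day 20 in f/f. Hoxd8 was the reverse, with 0.455 FPKM at day 20 and 0.460 FPKM in MEF in DKO, against 12.2 FPKM at day 20 and 0.480 FPKM in MEF in f/f (-3.16). It passed the filter through the f/f day-20 library alone, so the median of the 2 Hoxd genes is partly set by the filter. In f/f 13 of the 25 were at least 2-fold lower at day 20, and in DKO none was.

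**Figure D5:**
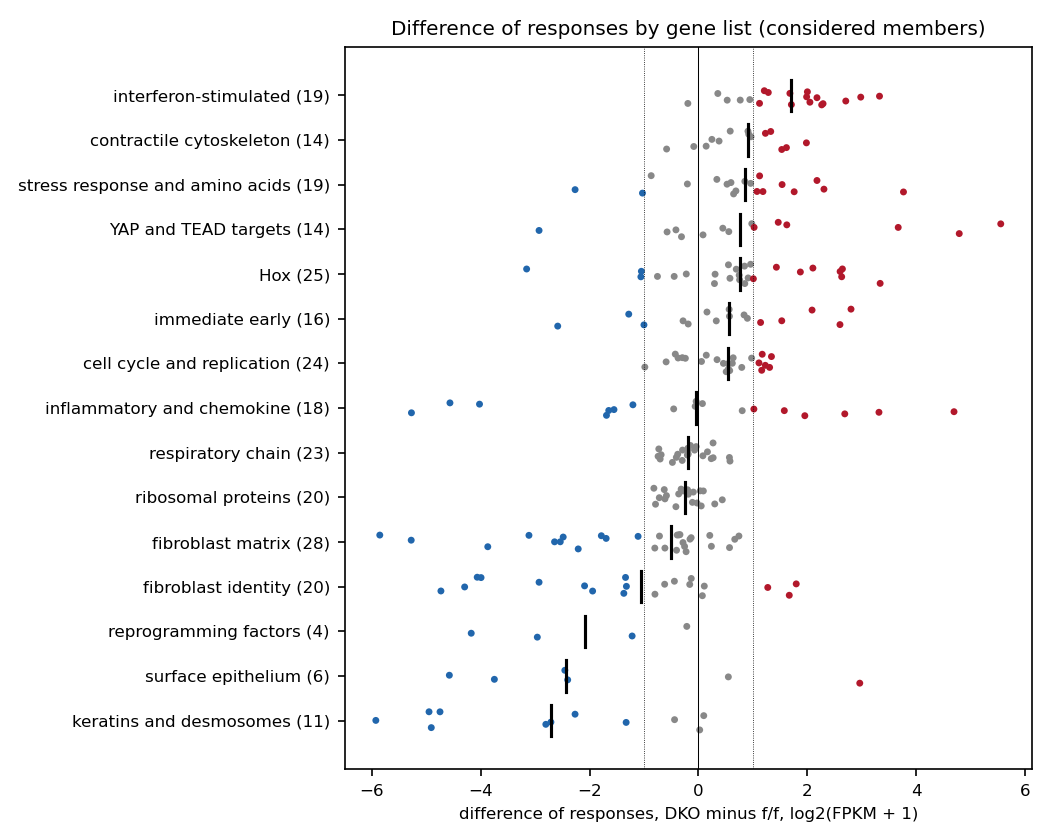
Difference of responses, DKO minus f/f on log2(FPKM + 1), for the considered members of 15 lists, with the number of genes in brackets. Each point is a gene, red at 1 or above and blue at -1 or below, and black bars are medians. Interferon-stimulated genes have the highest median after the filter on low values (1.71) and keratins and desmosomes the lowest (-2.71), while ribosomal and respiratory genes stay between the dotted lines.

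Chemokines and other inflammatory genes went both ways. Of all 22 genes, with no filter, 6 were higher and 9 lower at the 2-fold line, and the median was -0.12. The filter kept 18, with 6 higher and 7 lower and a median of -0.05. Of those 18, 3 passed the filter through the f/f day-20 library alone. The neutrophil chemokines Cxcl5 and Cxcl1 were raised in f/f only: Cxcl5 stood at 0.903 FPKM at day 20 and 0.694 FPKM in MEF in DKO, against 68.8 FPKM at day 20 and 0.606 FPKM in MEF in f/f (-5.27), and Cxcl1 at 0.180 FPKM at day 20 and 0.110 FPKM in MEF in DKO, against 50.8 FPKM at day 20 and 1.06 FPKM in MEF in f/f (-4.57). Il1rl1, the receptor of interleukin 33, stood at 1.73 FPKM at day 20 and 4.40 FPKM in MEF in DKO, against 84.3 FPKM at day 20 and 9.36 FPKM in MEF in f/f (-4.02). Ccl5, a chemokine for T cells, was instead lost in f/f, with 7.48 FPKM at day 20 and 9.30 FPKM in MEF in DKO, against 0.452 FPKM at day 20 and 44.7 FPKM in MEF in f/f (4.70). The DKO day-20 value of Ccl5 rests on 93 reads and the f/f value on 6.

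Immediate early genes, which respond to growth signals within minutes, went both ways. Of 16 considered, 5 were higher and 3 lower at the 2-fold line, with a median of 0.57. In DKO 8 of the 16 were at least 2-fold higher at day 20, and in f/f none was. Egr3 stood at 4.36 FPKM at day 20 and 1.62 FPKM in MEF in DKO, against 1.61 FPKM at day 20 and 7.89 FPKM in MEF in f/f (2.80), Egr2 at 7.88 FPKM at day 20 and 3.24 FPKM in MEF in DKO, against 0.580 FPKM at day 20 and 3.58 FPKM in MEF in f/f (2.60) and Egr1 at 388 FPKM at day 20 and 156 FPKM in MEF in DKO, against 73.3 FPKM at day 20 and 126 FPKM in MEF in f/f (2.09), and these 3 zinc-finger factors were higher at day 20 in DKO and lower at day 20 in f/f. Dusp1, a phosphatase of stress kinases, ran the other way, with 29.1 FPKM at day 20 and 102 FPKM in MEF in DKO, against 53.9 FPKM at day 20 and 30.3 FPKM in MEF in f/f (-2.59). Among feedback regulators of the ERK pathway and FGF genes, 6 of 17 were higher and 1 lower. The ERK phosphatase Dusp5 stood at 6.18 FPKM at day 20 and 1.2 FPKM in MEF in DKO, against 2.60 FPKM at day 20 and 9.55 FPKM in MEF in f/f (3.26), and the ETS factor Etv1 at 10.1 FPKM at day 20 and 1.83 FPKM in MEF in DKO, against 3.15 FPKM at day 20 and 3.21 FPKM in MEF in f/f (1.99). The lower one was Spry1 (-2.0), an inhibitor of receptor tyrosine kinase signalling.

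Of all 17 Wnt targets and regulators, with no filter, 5 were lower in DKO and 1 higher at the 2-fold line, with a median of -0.29. Over all 24284 genes, 4.95% were lower and 3.7% higher. The filter kept 13, with 5 lower and 1 higher and a median of -0.48. Of those 13, 2 passed the filter through the f/f day-20 library alone, Nkd2 among them. Nkd2 and Axin2, which feed back on the pathway, stood at 0.636 and 1.88 FPKM in DKO and at 10.1 and 7.45 FPKM in f/f at day 20. Their differences were -3.04 and -1.73. The higher one was Sfrp2, a secreted Wnt antagonist, at 106 FPKM at day 20 and 75.8 FPKM in MEF in DKO, against 7.61 FPKM at day 20 and 38.8 FPKM in MEF in f/f (2.69). The BMP antagonist Grem1 stood at 14 FPKM at day 20 and 5.69 FPKM in MEF in DKO, against 23.4 FPKM at day 20 and 66.9 FPKM in MEF in f/f (2.64), opposite in direction between genotypes. Bmp4, a ligand it binds, gave -1.38.

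Some genes outside the lists were at least 2-fold higher at day 20 than in MEF in DKO and not in f/f. Gria4, a subunit of AMPA glutamate receptors, stood at 55.2 FPKM at day 20 and 1.97 FPKM in MEF in DKO, against 0.175 FPKM at day 20 and 0.281 FPKM in MEF in f/f (4.37), and Sparcl1, a matricellular relative of SPARC, at 17.2 FPKM at day 20 and 0.126 FPKM in MEF in DKO, against 0.218 FPKM at day 20 and 0.133 FPKM in MEF in f/f (3.91). Prkg2, a kinase activated by cyclic GMP, stood at 16.1 FPKM at day 20 and 3.16 FPKM in MEF in DKO, against 0.707 FPKM at day 20 and 4.33 FPKM in MEF in f/f (3.68), and Serpina3g, a protease inhibitor, at 86.5 FPKM at day 20 and 16.5 FPKM in MEF in DKO, against 12.8 FPKM at day 20 and 35.1 FPKM in MEF in f/f (3.71). Prkg2 and Serpina3g were also at least 2-fold lower at day 20 than in MEF in f/f. So were others among the highest 15. Of those named next, Sorbs2 and Gstt1 were at least 2-fold higher at day 20 in DKO as well. The actin adaptor Sorbs2 stood at 4.56 FPKM at day 20 and 1.12 FPKM in MEF in DKO, against 0.734 FPKM at day 20 and 12.7 FPKM in MEF in f/f (4.37) and the glutathione transferase Gstt1 at 16.5 FPKM at day 20 and 4.94 FPKM in MEF in DKO, against 3.97 FPKM at day 20 and 20.6 FPKM in MEF in f/f (3.68). Fam150a (current symbol Alkal1), a ligand of the receptor ALK, stood at 11.6 FPKM at day 20 and 11.4 FPKM in MEF in DKO, against 0.978 FPKM at day 20 and 24.4 FPKM in MEF in f/f (3.71). The imprinted proteolipid gene Nnat stood at 4.89 FPKM at day 20 and 3.07 FPKM in MEF in DKO, against 3.98 FPKM at day 20 and 36.5 FPKM in MEF in f/f (3.45), with f/f MEF the one high library.

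Among 24 cell-cycle genes, 9 were at least 2-fold lower at day 20 than in MEF in DKO and 16 in f/f. The cyclin Ccnd1, named after its values were seen, was at least 2-fold higher at day 20 in both. In the difference of responses 6 were higher and none lower at the 2-fold line, with a median difference of 0.55. The cyclins Ccna2 and Ccnb1 had differences of 1.34 and 1.31, and Ccna2 stood at 21.3 FPKM at day 20 and 35.6 FPKM in MEF in DKO, against 9.56 FPKM at day 20 and 43 FPKM in MEF in f/f. The cell-cycle inhibitor Cdkn1a (p21) was higher at day 20 in f/f, with 21.7 FPKM at day 20 and 14.5 FPKM in MEF in DKO, against 109 FPKM at day 20 and 15.2 FPKM in MEF in f/f (-2.21). Of 18 genes of p53 and arrest 5 were lower and 2 higher, and Ccng1 and Trp53inp1, both p53 targets, gave -1.58 and -1.51. No gene passed the 2-fold line in either direction among 20 ribosomal protein genes, 23 respiratory chain genes and 8 genes of DNA methylation. Of 18 genes of the KMT2 complexes 1 did, Pagr1a (-1.23), an MLL3 and MLL4 complex subunit that stood at 4.66 FPKM at day 20 and 7.01 FPKM in MEF in DKO, against 14.8 FPKM at day 20 and 8.52 FPKM in MEF in f/f. The other complex members lay within 2-fold.

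The ESC and day-4 embryoid body libraries deposited in the same unit give a reading outside the contrast. Of the 271 genes with a lower response in DKO, 14 were at least 2-fold lower in DKO than in f/f ESC (5.17%, against 1.97% of all genes) and 10 at least 2-fold higher (3.69%, against 1.22%). In embryoid bodies 28 of the 271 were lower (10.3%, against 3.24%) and 10 higher (3.69%, against 1.12%). Of the 159 genes with a higher response, 8 were at least 2-fold higher in DKO ESC (5.03%, against 1.22%) and 7 lower (4.40%, against 1.97%). In embryoid bodies 18 of the 159 were lower (11.3%, against 3.24%) and 5 higher (3.14%, against 1.12%). In both sets and both directions the share was above that of all genes, and the median DKO minus f/f value in ESC was 0.01 for each. In f/f ESC, 66 of the 271 (24.4%) and 25 of the 159 (15.7%) stood at 10 FPKM or more, against 49.4% of all genes. In contrast, 103 (38%) and 75 (47.2%) were under 1 FPKM there, against 10.2%.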

How the data were processed

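The authors deposited 8 of 12 mouse RNA libraries as FPKM by Entrez gene (headers of the files), and 4 of these form the contrast. The other 4 hold read counts and RPKM per RefSeq transcript, as deposited by the authors, and served only to give transcript lengths. The submitters' processing notes name the build mm9 and CASAVA 1.8.2. No aligner, annotation release or strand setting is stated in the labels or headers, so overlapping, antisense and near-identical genes are uncertain. Another 24 samples, chromatin and input, were not used.

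From the deposited FPKM, the difference of responses was taken on log2(FPKM + 1) over genes with a mean of at least 1 FPKM, and counted past 2 (4-fold) and past 1 (2-fold). The pseudocount understates changes of low genes. No library was scaled further, and no test was made, since each group has 1 library. Depth was recovered from the steps of low values. Of 3000 low genes per library, 90.1% to 92.1% were whole reads within 0.02. With a search over lengths, 12280 of 12281 genes gave whole reads, which is no check of the depth. For 89.0% of 9242 genes with 1 transcript, the length found was the transcript's, and that length was used for all of them. Counting errors cover sampling of reads only.

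The rule for names took Kmt2c, Kmt2d and 4 factors, the 15 highest and 15 lowest differences with a gene symbol word, and up to 4 genes per list with a difference of at least 1 in size; 2 of the highest are not reported here. The 40 lists (721 entries) and the contrast were chosen with earlier results of these data known. The script was tested on simulated data. Alternatives were other pseudocounts, filters and scalings. Python 3.11.15, pandas 2.3.3, numpy 2.4.6 and scipy 1.17.1 were used.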

Additional observations from a re-analysis of the deposited data

Results flagged for a closer look

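In 18 named genes the 1 DKO library pair and the 1 f/f library pair moved at least 2-fold in opposite directions between MEF and day 20. With 1 library per group these differences of responses were not tested. Genes lower at day 20 than in MEF in DKO and higher in f/f were Col12a1 (-5.28), Agtr2 (-5.11), Egfl6 (-5.01) and H19 (-4.20). Genes higher at day 20 in DKO and lower in f/f included the matricellular and mechanical genes Ankrd1 (5.56), Ctgf (4.79), Sorbs2 (4.37) and Cyr61 (3.67). The same direction was read in Chac1 (3.77), Serpina3g (3.71), Gstt1 (3.68), Prkg2 (3.68), the ERK phosphatase Dusp5 (3.26) and the connexin Gjb2 (2.96). It was also read in the growth-response factors Egr3 (2.80), Egr2 (2.60) and Fosl1 (2.27) and in the BMP antagonist Grem1 (2.64). By arithmetic, 2-fold responses in opposite directions differ by at least 4-fold, so every such gene lies in the 4-fold sets. Of the 12281 genes considered, these were 24 of the 271 with a lower and 30 of the 159 with a higher response.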

How the results depend on the processing

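No paired analysis was possible because each of the 4 groups has 1 library, and no replicate could be left out for the same reason. The number of 4-fold lower and higher genes was 271 and 159 as reported, 415 and 268 with a pseudocount of 0.1, 94 and 46 with a pseudocount of 5, and 151 and 103 with a mean of at least 5 FPKM. The 2-fold numbers were 954 and 776 as reported, 410 and 371 with a pseudocount of 5, and 550 lower with a mean of at least 5 FPKM. Under no filter and 3 other scalings the 4-fold numbers stayed between 264 and 287 lower and 157 and 176 higher. Lower genes made up 59.4% to 67.1% of 4-fold calls in every setting run. Of 129 named genes 128 kept 1 sign in every setting run, and 120 of 871 values of single genes under an alternative moved by 1.5-fold or more. The median over endothelial markers went to 0.00636 with no filter, against -2.28 as reported, where it rests on 1 gene. The median over core pluripotency genes, from 4 genes, was above 0 with quantile normalization and with a mean of at least 5 FPKM, at 0.33 and 0.73. Of 277 list medians under an alternative 25 moved by 1.5-fold or more with the sign kept or the reported size under 1, among them the Hox median with no filter. Depth limits genes near 1 FPKM most, and differences between 1 line and another cannot be told apart from those between genotypes.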

Other observations

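Some groups differed between genotypes at both times and so gave little difference of responses. Of 15 cholesterol synthesis genes, 13 were at least 2-fold higher in DKO than in f/f at day 20 and 10 in MEF. Over all genes considered the shares were 8.26% and 3.72%. The median DKO minus f/f value of the 15 was 1.48 at day 20 and 1.27 in MEF, which leaves a median difference of responses of 0.12. Only Sqle (1.21) and Fdft1 (1.05), enzymes of squalene metabolism, passed the 2-fold line. Sqle stood at 103 FPKM at day 20 and 121 FPKM in MEF in DKO, against 17.7 FPKM at day 20 and 49.8 FPKM in MEF in f/f. Scd1, a fatty acid desaturase, stood at 118 FPKM at day 20 and 119.9 FPKM in MEF in DKO, against 14 FPKM at day 20 and 67.9 FPKM in MEF in f/f (2.18), and the fatty-acid-binding genes Fabp4 (-2.10) and Fabp5 (1.05) went opposite ways.

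Of 19 genes of glycolysis and hypoxia 9 were at least 2-fold higher at day 20 than in MEF in DKO and 7 in f/f, and none was 2-fold lower, with median responses of 0.95 in DKO and 0.88 in f/f. In the difference of responses 1 was higher and 4 lower. Ndrg1, a gene induced by low oxygen, stood at 240.1 FPKM at day 20 and 64.2 FPKM in MEF in DKO, against 17.5 FPKM at day 20 and 13.8 FPKM in MEF in f/f (1.57), while the hypoxia factor gene Hif1a stood at 37.2 FPKM at day 20 and 47.6 FPKM in MEF in DKO, against 117 FPKM at day 20 and 44.7 FPKM in MEF in f/f (-1.71). Of 19 imprinted genes 3 were higher and 5 lower. Dlk1, a Notch-related ligand, stood at 50.9 FPKM at day 20 and 2.38 FPKM in MEF in DKO, against 31.8 FPKM at day 20 and 13 FPKM in MEF in f/f (2.71), and Cdkn1c, a cell-cycle inhibitor, at 0.220 FPKM at day 20 and 0.619 FPKM in MEF in DKO, against 41.9 FPKM at day 20 and 13.7 FPKM in MEF in f/f (-1.95). Of all 18 naive-state genes, with no filter, 2 were higher and none lower, and the median was -0.13. Another 10 were under 1 FPKM in all 4 libraries. The 2 higher ones were Klf5 and Klf2. Klf5 stood at 31.2 FPKM at day 20 and 9.59 FPKM in MEF in DKO, against 3.15 FPKM at day 20 and 3.37 FPKM in MEF in f/f (1.68). Klf2 stood at 7.24 FPKM at day 20 and 6.88 FPKM in MEF in DKO, against 5.61 FPKM at day 20 and 19 FPKM in MEF in f/f (1.66). With no filter, 3 of 20 neural genes were higher and 1 lower (median -0.01), and 12 were under 1 FPKM in all 4 libraries. Stmn2, a microtubule regulator of neurons, stood at 95.9 FPKM at day 20 and 83.8 FPKM in MEF in DKO, against 14.3 FPKM at day 20 and 77.1 FPKM in MEF in f/f (2.55). Among 20 mesendoderm genes 2 were higher and 2 lower with no filter (median 0.01), and 14 were under 1 FPKM in all 4 libraries. The endoderm factor Gata6 stood at 11.1 FPKM at day 20 and 7.87 FPKM in MEF in DKO, against 1.61 FPKM at day 20 and 8.37 FPKM in MEF in f/f (2.29). Gsc of the same list ran the other way (-1.40).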
